A study of Mus musculus with 12 samples.

Results

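The genes described here encode the vacuolar proton pump (V-ATPase) and the proteins that connect it, on the lysosome surface, to the kinase complex mTORC1 and to the transcription factors TFEB, TFE3 and MITF. They were taken from the gene names of the deposited count table: every name that begins with Atp6v or Atp6ap, together with Tcirg1, Tfeb, Tfe3, Mitf, Lamtor1 to Lamtor5, Rraga, Rragc, Rragd, Flcn, Fnip1, Mtor, Rptor, Tsc1, Tsc2 and Rheb. Names marked as pseudogenes (-ps) were left out. This gave 45 of 39179 rows. They fall into 13 genes of the V1 sector of the pump, 10 of its V0 sector, 3 accessory subunits, 5 genes of the Ragulator complex, 5 for Rag GTPases with Flcn and Fnip1, 5 for mTORC1, TSC and RHEB, and 3 for the transcription factors. The remaining gene, Atp6v1fnb, was included by its name only. The rule reads names and no measured value.

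The V-ATPase pumps protons into lysosomes and so keeps them acidic enough for their hydrolases. Its V1 sector, in the cytosol, splits ATP and turns a central rotor, and its V0 sector, in the membrane, carries protons across on a ring of c subunits. The Ragulator complex holds the Rag GTPases on the lysosome surface, where together with the pump they bring mTORC1 to the membrane when amino acids are plentiful. mTORC1 phosphorylates TFEB, TFE3 and MITF, which keeps them in the cytosol. When they reach the nucleus they bind promoters of lysosomal genes, among them genes of the pump, at motifs built on the letters CACGTG. In macrophages the pump serves the breakdown of material taken up, such as modified lipoproteins.

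RNA was sequenced from RAW 264.7 cells, a macrophage line from BALB/c mice. Cells had been nucleofected with a short hairpin RNA against PHLPP1, a phosphatase that acts on AKT, or with one against luciferase (sh-Luc), and each was kept as 1 stable line under puromycin. The 4 groups of 3 libraries were the line with the sh-PHLPP1 label with 100 µg/ml oxidised low-density lipoprotein (OxLDL) for 24 h, the same line untreated, the sh-Luc line with the same OxLDL, and the sh-Luc line untreated. Replicates 1, 2 and 3 are cultures at passages 9, 10 and 11, so each p-value measures the spread between passages of 1 line and not between lines made independently.

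Libraries held 16020186 to 27422114 counts. Phlpp1 itself read no lower in untreated libraries of the sh-PHLPP1 label, with 17.3, 14.6 and 14.0 CPM (reads of the gene scaled to a common library size), against 12.4, 14.4 and 13.3 CPM in untreated sh-Luc libraries. After OxLDL it was lower, with 8.65, 8.35 and 7.40 CPM against 11.4, 13.5 and 11.4 CPM in sh-Luc, so that line is called the sh-PHLPP1-labelled line throughout. Within groups, libraries correlated across genes at 0.970 to 0.997 in log2 CPM. Replicate 1 of the untreated group labelled sh-PHLPP1 (0.970 with each of the others, against 0.997 between those) and replicate 2 of the untreated sh-Luc group (0.986, against 0.997) stood apart, and results that turn on them are given without them too. All 10 macrophage markers looked at were detected, with a summed level of 16244 to 18729 CPM in sh-PHLPP1-labelled OxLDL libraries, 11224 to 13119 CPM in the same line untreated, 18597 to 20562 CPM in sh-Luc with OxLDL and 16391 to 19646 CPM in untreated sh-Luc. Lyz2 gave the largest part of this sum, and single markers went other ways: of the 9 tested, 5 were higher and 1 lower with OxLDL in the sh-PHLPP1-labelled line (median log2 fold change 0.48), and after OxLDL 6 were higher and 2 lower in that line than in sh-Luc (0.53). Over all genes tested, 26.2% were called higher and 28.4% lower with OxLDL in the sh-PHLPP1-labelled line (adjusted p under 0.05). Between the lines after OxLDL, 27.6% were called in each direction. The marker medians have the direction of most pump genes below, and the part of the markers in the results was not tested. Fibroblast and epithelial markers summed to no more than 5.11 CPM, with Epcam, Krt18 and Cdh1 at 0.

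Of the 45 genes, 38 had enough counts to be tested, and 30 of the 38 differed among the 4 groups, where 73.1% of all genes did. Atp6v1g3, Atp6v0a4, Atp6ap1l and Atp6v1e2 had 0 counts in all 12 libraries, which allows up to 3 counts in each, or 0.0999 to 0.222 CPM. Atp6v1b1 had 2 counts over the 12 libraries, Atp6v1fnb 3 and Atp6v1c2 19. These are isoforms known mainly from kidney, testis or other specialised tissues, apart from Atp6v1fnb and Atp6ap1l. Differences were tested with edgeR's quasi-likelihood test over all 13121 genes with enough counts, and a gene was called at a Benjamini-Hochberg adjusted p under 0.05. Fold changes are given on the log2 scale with their standard error (± SE). In these bulk samples, fewer cells with a transcript and less transcript per cell cannot be told apart.

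**Figure D1:**
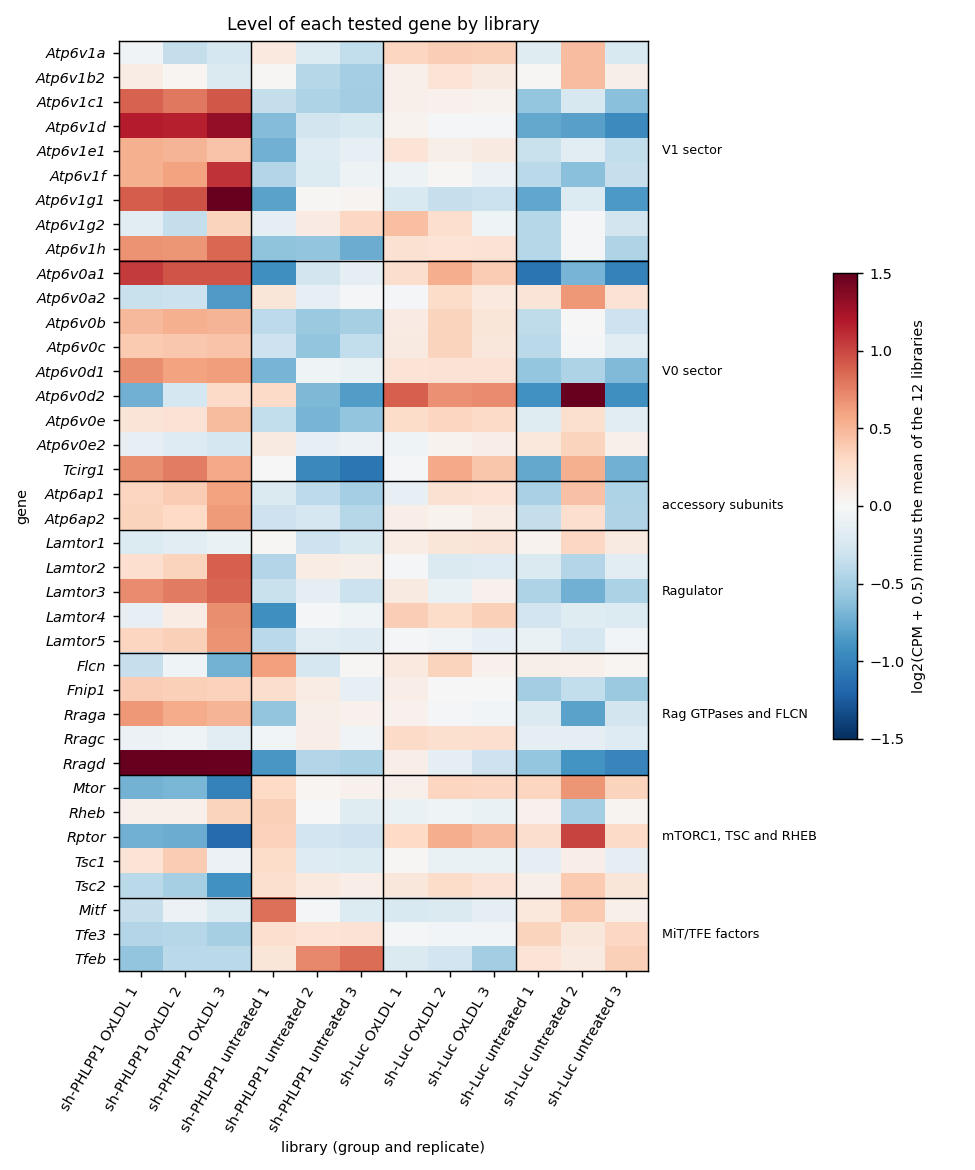
Levels of the 38 tested genes (rows, grouped by role) in the 12 libraries (columns, 3 per group), as log2(CPM + 0.5) minus each gene's mean over the libraries; the colour scale ends at 1.5 in either direction. Most pump genes are highest in the 3 sh-PHLPP1-labelled OxLDL libraries, while Mtor, Rptor and Tsc2 are lowest there, and the untreated sh-Luc replicate 2 stands out for Atp6v0d2, Tcirg1 and Rptor.

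Promoters are shown for the pump genes that hold the motif of TFEB and its relatives near the start site in its longer form or in 2 copies. The windows run from 150 bases before to 20 after the annotated start site (RefSeq, build GRCm38.p6), each printed 5′ to 3′ on the gene's own strand. Capitals mark CACGTG, or TCACGTGA where the longer form was present. The Atp6v0b window is chr4:117887310-117887479 (minus strand), that of Atp6v0d1 is chr8:105566045-105566214 (minus strand), that of Atp6v0e is chr17:26676246-26676415 (plus strand), and that of Atp6v1a is chr16:44139240-44139409 (minus strand).
Atp6v0b: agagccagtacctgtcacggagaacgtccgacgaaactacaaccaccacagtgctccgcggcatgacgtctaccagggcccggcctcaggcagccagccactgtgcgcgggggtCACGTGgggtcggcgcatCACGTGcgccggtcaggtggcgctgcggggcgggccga
Atp6v0d1: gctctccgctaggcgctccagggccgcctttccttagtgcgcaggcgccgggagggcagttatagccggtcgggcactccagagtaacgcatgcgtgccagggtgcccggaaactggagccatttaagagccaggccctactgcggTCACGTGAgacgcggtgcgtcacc
Atp6v0e: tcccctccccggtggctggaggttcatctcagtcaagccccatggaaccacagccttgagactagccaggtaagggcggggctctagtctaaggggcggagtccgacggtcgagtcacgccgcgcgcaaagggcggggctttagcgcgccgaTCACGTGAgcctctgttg
Atp6v1a: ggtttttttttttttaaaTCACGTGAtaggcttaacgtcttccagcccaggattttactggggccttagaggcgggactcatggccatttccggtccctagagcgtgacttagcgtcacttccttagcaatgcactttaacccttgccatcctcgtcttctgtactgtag
Counting from the start site, the first C of CACGTG lies at -36 and -18 in Atp6v0b, at -3 in Atp6v0d1, at 4 in Atp6v0e and at -131 in Atp6v1a.

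Over the full 300 bases in the table (250 before and 50 after the start site), CACGTG was present in 9 of the 37 members with a promoter there (24.3%), against 8.09% of all 27025 genes and 12.0% of the 9324 tested genes with one. The motif reads the same on both strands, so each match was counted once. The other members with a match were Fnip1 at -75, Lamtor1 at -68, Lamtor4 at -120 and -104, Rheb at -96 and Rragc at -112. No promoter sequence was available for Atp6v1b2, Atp6v1c1, Atp6v1g1, Atp6v1h, Atp6v0a2, Atp6v0d2, Atp6ap1l and Lamtor3, so these genes were not searched. The longer TCACGTGA, which contains CACGTG, was found in Atp6v0d1, Atp6v0e and Atp6v1a, or 8.11% of the 37, against 1.12% of all genes and 2.25% of the tested genes. These matches describe letters in a window and do not show binding.

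With OxLDL, genes of every part of the pump rose in the sh-PHLPP1-labelled line, and genes of its V1 and V0 sectors rose in sh-Luc. In the sh-PHLPP1-labelled line, 19 of the 38 tested genes were called higher with OxLDL than without and 7 lower, where 26.2% of all genes tested were called higher and 28.4% lower (54.6% in either direction). In the sh-Luc line, 10 were called higher and 2 lower, against 6.38% and 3.09% of all genes (9.47% in either direction). Among the 20 tested pump genes, 14 were higher and 1 lower in the sh-PHLPP1-labelled line, with a median log2 fold change of 0.84, against a median of -0.03 over all genes. In the sh-Luc line 6 were higher and 0 lower, with a median of 0.41 against 0.00 over all genes; DESeq2 called 7 higher and 0 lower, and at an unadjusted p under 0.05 edgeR had 10 higher and 0 lower. The 18 signalling genes were divided, with 5 higher and 6 lower in the sh-PHLPP1-labelled line and 4 higher and 2 lower in sh-Luc. Rragd is counted among the higher genes of each line. It was kept by the filter on low counts only through its sh-PHLPP1-labelled OxLDL libraries, so its call in that line is a description and no test.

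Scaling by library size alone, without the trimmed-mean factors, moved the median of all genes in the sh-PHLPP1-labelled line to -0.46. The members' split there became 14 higher and 12 lower, where 12.0% of all genes were called higher and 48.6% lower. Among the 20 tested pump genes, 12 remained higher and 3 were lower, against 1 lower in the main fit. Their median log2 fold change went from 0.84 to 0.41. In 8 genes the level was called higher with OxLDL in both lines, namely Atp6v1c1, Atp6v1d, Atp6v1h, Atp6v0a1, Atp6v0b, Atp6v0d1, Lamtor3 and Rragd. For Rragd the call in the sh-PHLPP1-labelled line is a description, as stated above. Tfe3 and Tfeb were lower with OxLDL in both lines. Without the 2 untreated libraries that stand apart, the counts were 24 higher and 6 lower in the sh-PHLPP1-labelled line, where 29.7% and 32.7% of all genes were then called. In sh-Luc they were 21 higher and 3 lower, where 15.8% and 11.1% were called. OxLDL and untreated libraries did not overlap for 27 of the 38 genes in the sh-PHLPP1-labelled line, where 59.9% of all genes did not overlap, and for 20 in sh-Luc, where 43.2% did not.

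**Figure D2:**
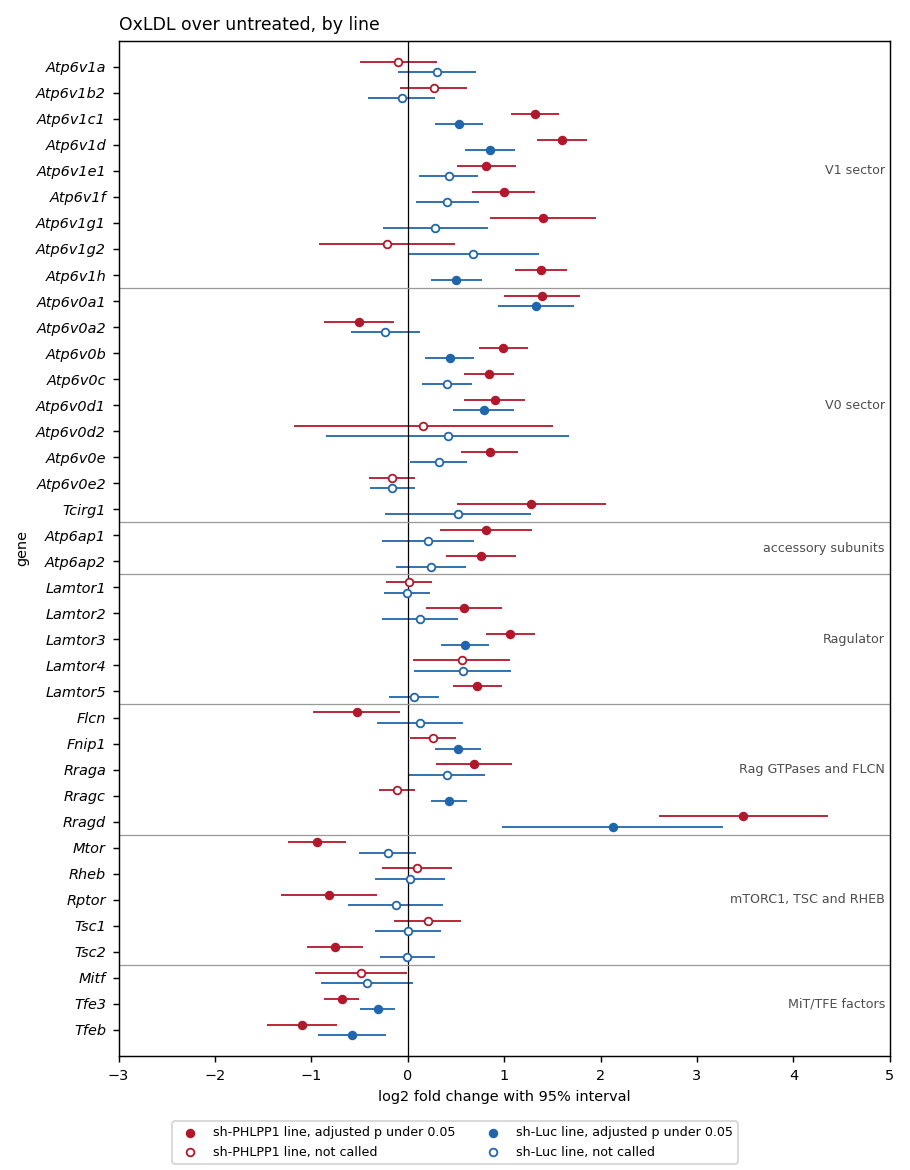
Log2 fold change of OxLDL over untreated (x axis, with 95% interval) for the 38 tested genes, in the sh-PHLPP1-labelled line (red, upper point of each pair) and in the sh-Luc line (blue); filled points were called at an adjusted p under 0.05. The red points of Atp6v1d, Atp6v1c1, Atp6v1h and Atp6v1g1 lie right of 1, and Rragd reaches 3.48 in the sh-PHLPP1-labelled line. The red point of Rragd is a description, because the gene passed the filter on low counts only through its sh-PHLPP1-labelled OxLDL libraries.

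In the V1 sector, 6 of the 9 tested genes were higher with OxLDL in the sh-PHLPP1-labelled line, those for the rotor and for the regulatory and stalk subunits, and 3 were higher in sh-Luc. The shares of all genes called higher were 26.2% in the sh-PHLPP1-labelled line and 6.38% in sh-Luc. Atp6v1d (chromosome 12, 78840725 to 78861638, GRCm38) encodes the D subunit of the central rotor. It had 198, 197 and 219 CPM after OxLDL, against 55.7, 72.3 and 74.7 CPM untreated in the sh-PHLPP1-labelled line. Atp6v1d in the sh-Luc line had 90.5, 86.0 and 86.6 CPM after OxLDL, against 51.0, 49.6 and 44.9 CPM untreated. All OxLDL libraries lay above all untreated libraries of their line, a change of 3.02-fold in the sh-PHLPP1-labelled line (1.60 ± 0.12, adjusted p = 6.32e-07) and 1.81-fold in sh-Luc (0.85 ± 0.12, adjusted p = 0.000758). Atp6v1f, for the F subunit of the same rotor, had 201, 212 and 294 CPM after OxLDL, against 103, 121 and 132 CPM untreated in the sh-PHLPP1-labelled line. Atp6v1f in the sh-Luc line had 132, 141 and 131 CPM after OxLDL, against 105, 89.6 and 109 CPM untreated. The OxLDL and untreated libraries did not overlap in either line, and the change was called in the sh-PHLPP1-labelled line (1.00 ± 0.15, adjusted p = 0.000168) but not in sh-Luc (0.41 ± 0.15, adjusted p = 0.108). The sh-Luc difference was called without untreated replicate 1 (0.42, adjusted p = 0.0429) or OxLDL replicate 3 (0.41, adjusted p = 0.0404) labelled sh-PHLPP1.

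Atp6v1c1 and Atp6v1h encode the C and H subunits, which in yeast control whether the sectors stay joined and whether a free V1 sector splits ATP. Atp6v1c1 had 561, 526 and 581.7 CPM after OxLDL, against 237, 220.1 and 211 CPM untreated in the sh-PHLPP1-labelled line. Atp6v1c1 in the sh-Luc line had 319, 317 and 314 CPM after OxLDL, against 204, 257 and 196 CPM untreated. The groups were apart in both lines, with a 2.498-fold change in the sh-PHLPP1-labelled line (1.32 ± 0.12, adjusted p = 2.36e-06) and 1.45-fold in sh-Luc (0.53 ± 0.11, adjusted p = 0.0121). Atp6v1h had 296, 293 and 338 CPM after OxLDL, against 122, 122.8 and 111 CPM untreated in the sh-PHLPP1-labelled line. Atp6v1h in the sh-Luc line had 217, 213 and 216 CPM after OxLDL, against 138, 182 and 136 CPM untreated. Here too no values overlapped, and the change was 1.38 ± 0.12, adjusted p = 2.78e-06 in the sh-PHLPP1-labelled line and 0.50 ± 0.12, adjusted p = 0.0224 in sh-Luc. The sh-Luc calls turned on single libraries: that of Atp6v1c1 was lost without untreated replicate 1 (0.49, adjusted p = 0.0591) or 3 (0.47, adjusted p = 0.0597), and that of Atp6v1h in 5 of the 12 fits that left out 1 library, with adjusted p-values of 0.0689 to 0.0949.

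The E and G subunits form the stalks that hold the V1 head still. Atp6v1g1 had 483, 498 and 794 CPM after OxLDL, against 148, 259.7 and 265 CPM untreated in the sh-PHLPP1-labelled line. Atp6v1g1 in the sh-Luc line had 219, 202 and 206 CPM after OxLDL, against 149, 223 and 141 CPM untreated. Replicate 3 was the highest of the sh-PHLPP1-labelled OxLDL libraries, all of them above the untreated ones (1.40 ± 0.25, adjusted p = 0.000629), while the sh-Luc groups overlapped (0.29 ± 0.25, adjusted p = 0.511). Atp6v1e1 averaged 144 ± 5.47 CPM with OxLDL and 81.7 ± 17.4 CPM untreated in the sh-PHLPP1-labelled line (SD, n = 3 each; 0.82 ± 0.14, adjusted p = 0.000425). In sh-Luc its means were 113 ± 4.54 and 84.1 ± 6.81 CPM (0.42 ± 0.14, adjusted p = 0.0771). Without untreated replicate 1 labelled sh-PHLPP1, which enters the sh-Luc test through the pooled spread, that difference was called (0.43, adjusted p = 0.0031).

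The catalytic head of the sector is a ring of A and B subunits. Atp6v1a, for the A subunit, averaged 447 ± 49.0 CPM with OxLDL and 478 ± 88.6 CPM untreated in the sh-PHLPP1-labelled line, and 665 ± 11.9 and 539 ± 153 CPM in sh-Luc. Neither difference passed the test, with 95% intervals of the log2 fold change of -0.50 to 0.30 and -0.10 to 0.70. Atp6v1b2, for the B subunit, gave 0.27 ± 0.16, adjusted p = 0.171 in the sh-PHLPP1-labelled line and -0.06 ± 0.16, adjusted p = 0.842 in sh-Luc. The untreated libraries that stand apart were the highest of their groups for Atp6v1a, at 576 and 716 CPM. Without sh-PHLPP1 untreated replicate 1, Atp6v1b2 was called higher in that line (0.44, adjusted p = 0.0176), and without sh-Luc untreated replicate 2, Atp6v1a was called higher in sh-Luc (0.56, adjusted p = 0.034). Atp6v1g2, a G isoform known from neurons, stayed between 0.709 and 1.71 CPM in the 12 libraries. Its exons overlap those of Nfkbil1 on the other strand, which had far more counts, and the strand setting of the counting was not given in the sources used here.

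**Figure D3:**
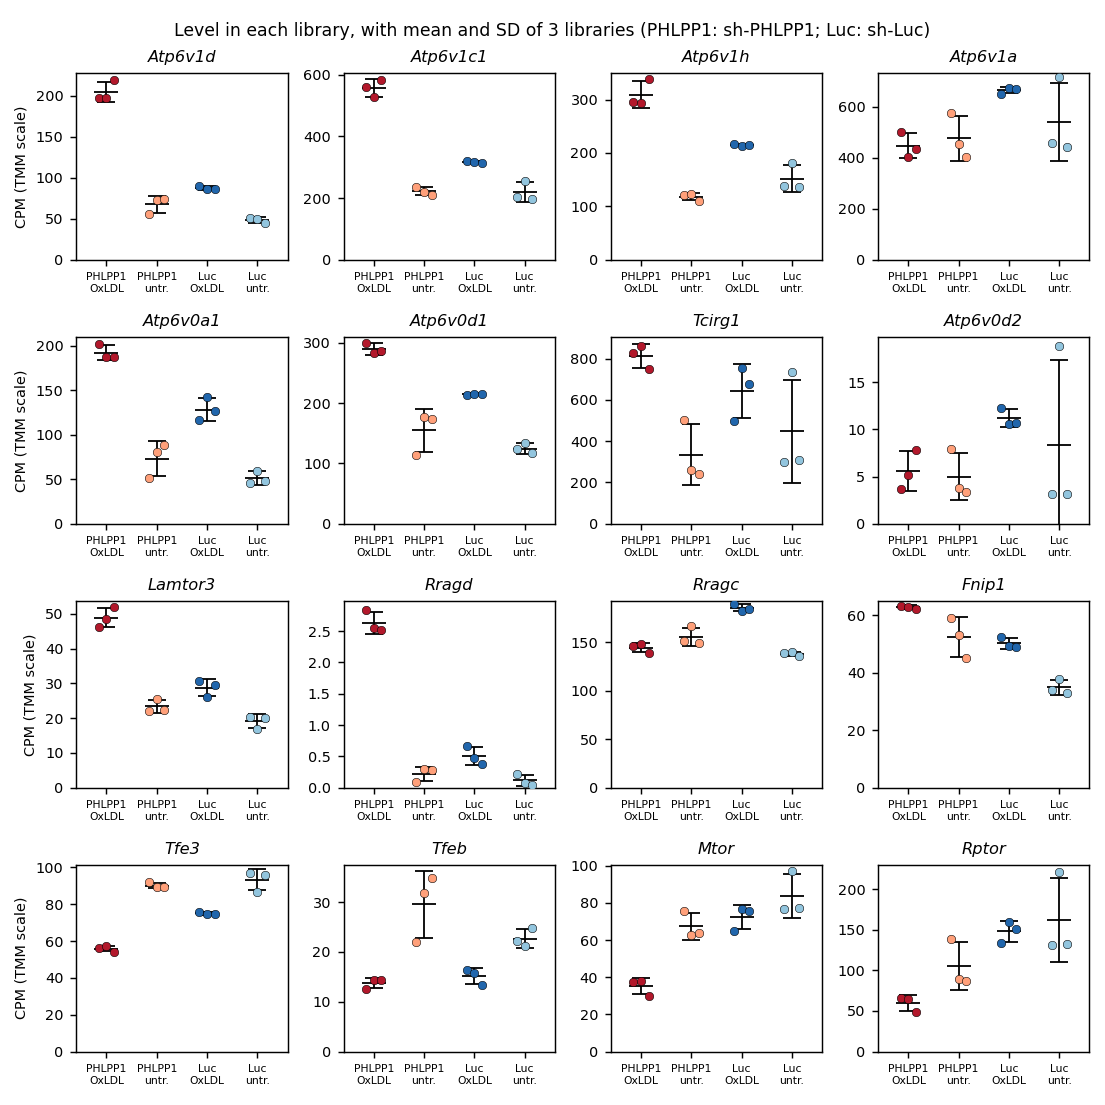
CPM in each library (points) with the mean and SD of 3 libraries (bars) for 16 of the genes, in the order sh-PHLPP1 OxLDL, sh-PHLPP1 untreated, sh-Luc OxLDL, sh-Luc untreated; each y axis starts at 0 and has its own range. Atp6v1d ranges over 197 to 219 CPM with OxLDL in the sh-PHLPP1-labelled line, above every other library, whereas the groups overlap for Atp6v1a; for Atp6v0d2 1 untreated sh-Luc library, at 18.8 CPM, lies above all others.

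In the V0 sector, 6 of the 9 tested genes were higher with OxLDL in the sh-PHLPP1-labelled line and 1 was lower, and 3 were higher in sh-Luc. The shares of all genes were 26.2% higher and 28.4% lower in the sh-PHLPP1-labelled line, and 6.38% higher in sh-Luc. Atp6v0a1 (chromosome 11, 101009452 to 101063719) encodes an a subunit, which forms the path of the protons through the membrane. It had 202, 187 and 188 CPM after OxLDL, against 51.1, 80.1 and 88.0 CPM untreated in the sh-PHLPP1-labelled line. Atp6v0a1 in the sh-Luc line had 116, 142 and 126 CPM after OxLDL, against 45.3, 59.8 and 47.9 CPM untreated. Its response was close in size in both lines, 2.63-fold (1.39 ± 0.18, adjusted p = 5.2e-05) in the sh-PHLPP1-labelled line and 2.52-fold (1.33 ± 0.18, adjusted p = 0.000658) in sh-Luc, with a difference between them of 0.06 ± 0.25, adjusted p = 0.876, 95% interval -0.48 to 0.61. Atp6v0d1 encodes the d subunit, which couples the membrane ring to the rotor. It had 299.9, 282 and 286 CPM after OxLDL, against 114, 177 and 173 CPM untreated in the sh-PHLPP1-labelled line. Atp6v0d1 in the sh-Luc line had 213, 216 and 216 CPM after OxLDL, against 123.4, 134 and 116 CPM untreated. Every OxLDL library was above the untreated ones of its line (0.90 ± 0.15, adjusted p = 0.000272 in the sh-PHLPP1-labelled line; 0.79 ± 0.15, adjusted p = 0.00541 in sh-Luc).

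The ring that carries the protons is made from the products of Atp6v0c and Atp6v0b. Atp6v0b had 452, 469 and 459.7 CPM after OxLDL, against 246, 219.9 and 228 CPM untreated in the sh-PHLPP1-labelled line. Atp6v0b in the sh-Luc line had 351, 409 and 366 CPM after OxLDL, against 248, 324 and 261 CPM untreated. The groups did not overlap in either line (0.99 ± 0.12, adjusted p = 2.69e-05 in the sh-PHLPP1-labelled line; 0.43 ± 0.12, adjusted p = 0.0359 in sh-Luc), but the sh-Luc call was lost in 7 of the 12 fits without 1 library, with adjusted p-values of 0.0508 to 0.149. Atp6v0c had 41.4, 42.0 and 42.5 CPM after OxLDL, against 25.2, 20.8 and 24.2 CPM untreated in the sh-PHLPP1-labelled line. Atp6v0c in the sh-Luc line had 34.6, 39.9 and 35.6 CPM after OxLDL, against 23.8, 31.1 and 28.2 CPM untreated. It was called in the sh-PHLPP1-labelled line (0.84 ± 0.12, adjusted p = 0.000117) and narrowly missed in sh-Luc (0.41 ± 0.12, adjusted p = 0.0524), where it was called without untreated replicate 2 (0.50, adjusted p = 0.0253) or without either of 2 sh-PHLPP1-labelled untreated libraries, at 0.0168 without replicate 1 and 0.0459 without replicate 2. Its counts are uncertain, because a row named as its pseudogene, Atp6v0c-ps2, held more reads and near-identical copies can share them. That row averaged 514 CPM with OxLDL and 256 CPM untreated in the sh-PHLPP1-labelled line (1.00 ± 0.10, adjusted p = 5.97e-06), and 453 and 267 CPM in sh-Luc (0.76 ± 0.10, adjusted p = 0.000432).

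Tcirg1 (chromosome 19, 3896050 to 3907133) encodes the a subunit isoform of lysosomes and of the osteoclast border, and was the a subunit gene with the most transcript. It averaged 812 ± 57.3 CPM with OxLDL and 334 ± 148 CPM untreated in the sh-PHLPP1-labelled line (1.28 ± 0.35, adjusted p = 0.00863), with no overlap. In sh-Luc it averaged 644 ± 131 and 448 ± 250.2 CPM (0.52 ± 0.35, adjusted p = 0.377), with untreated replicates at 298, 737 and 309 CPM. The untreated replicate 2 of sh-Luc reached the level of the OxLDL libraries, and without it the fold change was called (1.09, adjusted p = 0.033). Atp6v0e, for a small membrane subunit, changed in the sh-PHLPP1-labelled line (0.85 ± 0.14, adjusted p = 0.00029), whereas in sh-Luc (0.32 ± 0.14, adjusted p = 0.166) it was called without that same library (0.48, adjusted p = 0.0309). Atp6v0a2, whose product is best known from the Golgi, was the only V0 gene called lower, in the sh-PHLPP1-labelled line (-0.51 ± 0.17, adjusted p = 0.0226). It was not called without untreated replicate 1 (-0.42, adjusted p = 0.0537) or OxLDL replicate 3 (-0.36, adjusted p = 0.0877) of that line. Of the 4 genes whose promoters are printed above, Atp6v0b, Atp6v0d1 and Atp6v0e were called higher in the sh-PHLPP1-labelled line and Atp6v1a was not called.

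Atp6v0d2, the d isoform of osteoclasts, had 3.65, 5.21 and 7.85 CPM after OxLDL, against 7.88, 3.80 and 3.33 CPM untreated in the sh-PHLPP1-labelled line. Atp6v0d2 in the sh-Luc line had 12.3, 10.5 and 10.7 CPM after OxLDL, against 3.15, 18.8 and 3.12 CPM untreated. The untreated sh-Luc replicate 2 was the highest of the 12 libraries, and without it the OxLDL response in sh-Luc was called (1.84, adjusted p = 0.00964, against 0.41 ± 0.58, adjusted p = 0.696 with it). That library also had the highest summed level of 12 osteoclast markers, at 1868 CPM, against 1230 to 1338 CPM in the other untreated sh-Luc libraries. The sum was 1309 to 1583 CPM in sh-PHLPP1-labelled OxLDL libraries, 843 to 1364 CPM in the same line untreated and 1167 to 1316 CPM in sh-Luc with OxLDL, with Calcr, the calcitonin receptor, at 0 throughout. Single markers differed between the lines more than this sum does. Of the 10 tested, 6 were lower in the sh-PHLPP1-labelled line than in sh-Luc both after OxLDL (median log2 fold change -1.28) and untreated (-1.42). Over all genes, 27.6% and 12.2% were called lower in these comparisons, with medians of 0.01 and 0.03. Higher were 1 marker after OxLDL and 0 untreated, where 27.6% and 14.9% of all genes were called. Ctsk, for the collagen-cutting protease of osteoclasts, averaged 2.04 ± 0.479 CPM after OxLDL in the sh-PHLPP1-labelled line and 166 ± 16.4 CPM in sh-Luc (SD, n = 3). Mmp9, for a secreted gelatinase, averaged 685 ± 53.0 CPM after OxLDL in the sh-PHLPP1-labelled line and 119 ± 40.4 CPM in sh-Luc. The part of these markers in the results, those between the lines included, was not tested.

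Both tested accessory subunits rose in the sh-PHLPP1-labelled line. Atp6ap1, which encodes a glycoprotein needed for pump assembly, had 425, 442 and 513 CPM after OxLDL, against 291, 259 and 238 CPM untreated in that line. Atp6ap1 in the sh-Luc line had 311, 396 and 391 CPM after OxLDL, against 241, 461 and 247 CPM untreated. Atp6ap2, known also as the prorenin receptor, had 299, 293 and 372 CPM after OxLDL, against 192, 199 and 177 CPM untreated in the sh-PHLPP1-labelled line. Atp6ap2 in the sh-Luc line had 255, 248 and 258 CPM after OxLDL, against 186, 284 and 175 CPM untreated. OxLDL and untreated libraries of the sh-PHLPP1-labelled line did not overlap for either gene (0.81 ± 0.22, adjusted p = 0.00799 for Atp6ap1; 0.76 ± 0.17, adjusted p = 0.00225 for Atp6ap2), and both missed the call there when libraries were scaled by size alone (adjusted p = 0.103 and 0.0624). In sh-Luc the groups overlapped through untreated replicate 2, and the fold changes were 0.21 ± 0.22, adjusted p = 0.582 for Atp6ap1 and 0.24 ± 0.17, adjusted p = 0.403 for Atp6ap2; without that library both were called (0.59, adjusted p = 0.0205, and 0.50, adjusted p = 0.0227).

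Set per kilobase of exon, the pump genes covered more than 2 orders of magnitude. In sh-PHLPP1-labelled OxLDL libraries the highest was Atp6v1g1, at 521 ± 155 CPM per kb (SD, n = 3), followed by Atp6v0b (224 ± 4.03), Atp6v1f (222 ± 47.8) and Tcirg1 (177 ± 12.5). Atp6v0b and Atp6v1f did not differ beyond their spread there. In untreated sh-Luc libraries Atp6v1g1 (151 ± 39.8), Atp6v0b (135 ± 19.9), Atp6ap1 (105 ± 41.5), Tcirg1 (97.3 ± 54.4) and Atp6v1f (95.3 ± 9.77) led; neighbours in this order did not differ beyond their spread. Atp6v1d stood at 44.4 ± 2.68 CPM per kb in sh-PHLPP1-labelled OxLDL libraries, 14.7 ± 2.25 in that line untreated, 19.1 ± 0.537 in sh-Luc with OxLDL and 10.5 ± 0.696 in untreated sh-Luc. The levels rest on the summed exon length of each gene, which can exceed that of the transcript in use. The place of Atp6v0c in the order is uncertain, because its reads may lie on the left-out row Atp6v0c-ps2. In sh-PHLPP1-labelled OxLDL libraries Atp6v0c averaged 42.0 CPM (12.4 CPM per kb), and Atp6v0c-ps2 averaged 514 CPM.

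**Figure D4:**
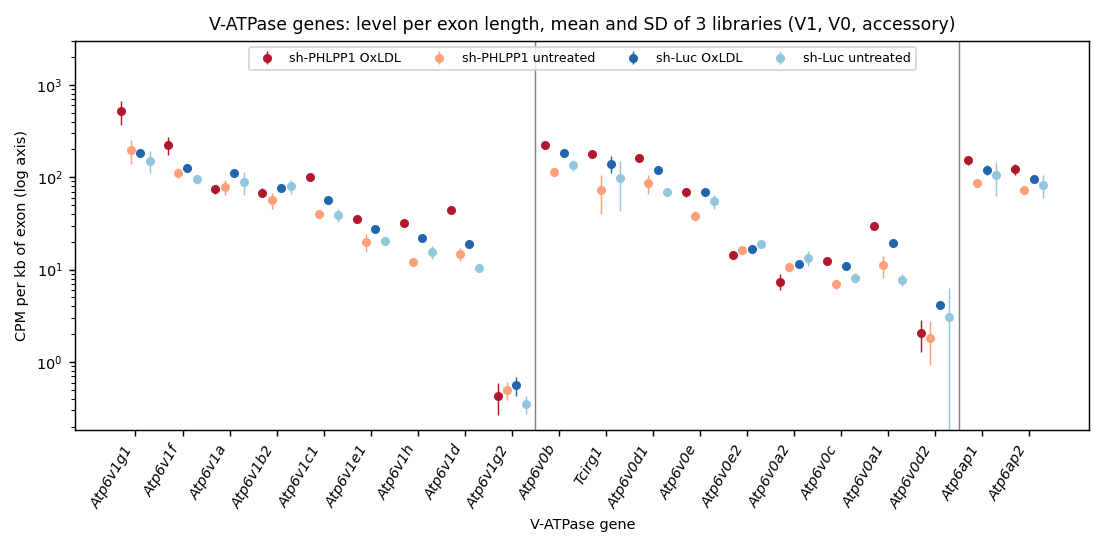
Level per kilobase of exon (CPM per kb, log axis; mean and SD of 3 libraries) of the 20 tested pump genes, in the order V1, V0 and accessory subunits, with the 4 groups side by side. Atp6v1g1, Atp6v0b, Atp6v1f and Tcirg1 are at the top, Atp6v1g2 lies under 1 CPM per kb, and an error bar that reaches 0 or below is drawn to the lower edge. The place of Atp6v0c is uncertain, because its reads may lie on the left-out row Atp6v0c-ps2.

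Where a subunit has several genes, 1 of them gave most of the per-length level in every group. Tcirg1 gave 82.8 ± 0.7% of the a subunit level in sh-PHLPP1-labelled OxLDL libraries, 75.2 ± 8.5% in that line untreated, 81.6 ± 1.9% in sh-Luc with OxLDL and 80.4 ± 5.0% in untreated sh-Luc (SD, n = 3). The share of Atp6v0a2 was 3.47 ± 0.49% with OxLDL and 11.7 ± 2.3% untreated in the sh-PHLPP1-labelled line, and 6.80 ± 0.63% and 12.4 ± 3.1% in sh-Luc. Its OxLDL and untreated shares did not overlap in either line, for which an exact 2-sided permutation test gives p = 0.1, the smallest it can give with 3 against 3. Atp6v0e held 82.7 ± 2.1% of the e subunit level with OxLDL and 70.4 ± 0.6% untreated in the sh-PHLPP1-labelled line, and 80.4 ± 0.8% and 74.5 ± 1.7% in sh-Luc, again without overlap (exact p = 0.1 in each line). Atp6v0d1 gave 96.0 to 98.7% of the d subunit level as group means, and Atp6v1b2, Atp6v1c1, Atp6v1e1 and Atp6v1g1 at least 99.7% of theirs. With 14 genes in 4 comparisons each, no p of 0.1 can pass an adjustment.

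The ratio between subunit transcripts also varied over the groups. Atp6v1d over Atp6v1a, a pair chosen after its values were seen and set per kilobase, was 0.606 ± 0.077 with OxLDL and 0.193 ± 0.060 untreated in the sh-PHLPP1-labelled line, and 0.173 ± 0.008 and 0.123 ± 0.029 in sh-Luc (SD, n = 3 each). The sh-PHLPP1-labelled OxLDL libraries lay above all others.

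The Ragulator genes did not move as 1 group. LAMTOR1 is the subunit whose lipid tail ties the complex to the lysosome, and the other subunits pair up on it. Lamtor3 (chromosome 3, 137918506 to 137928900) had 46.4, 48.6 and 52.0 CPM after OxLDL, against 22.2, 25.6 and 22.4 CPM untreated in the sh-PHLPP1-labelled line. Lamtor3 in the sh-Luc line had 30.8, 26.1 and 29.5 CPM after OxLDL, against 20.3, 16.8 and 20.2 CPM untreated. It rose in both lines with no overlap (1.06 ± 0.12, adjusted p = 1.47e-05 in the sh-PHLPP1-labelled line; 0.59 ± 0.12, adjusted p = 0.00763 in sh-Luc). Lamtor5 had 67.1, 68.8 and 85.8 CPM after OxLDL, against 40.5, 47.4 and 46.7 CPM untreated in the sh-PHLPP1-labelled line. Lamtor5 in the sh-Luc line had 53.0, 51.5 and 49.2 CPM after OxLDL, against 50.1, 44.7 and 52.2 CPM untreated. It was higher with OxLDL in the sh-PHLPP1-labelled line (0.72 ± 0.12, adjusted p = 0.000302) and overlapped in sh-Luc (0.06 ± 0.12, adjusted p = 0.773); the call was lost with library size alone (0.28, adjusted p = 0.0606).

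Lamtor2 had 143, 151 and 224 CPM after OxLDL, against 88.7, 129.7 and 127 CPM untreated in the sh-PHLPP1-labelled line. Lamtor2 in the sh-Luc line had 118, 103 and 105 CPM after OxLDL, against 103, 88.0 and 108 CPM untreated. The OxLDL replicate 3 labelled sh-PHLPP1 was the highest of all, and without it the call in that line (0.58 ± 0.18, adjusted p = 0.0171) was lost (0.35, adjusted p = 0.0928), as it was with library size alone (0.14, adjusted p = 0.516); in sh-Luc the values overlapped (0.12 ± 0.18, adjusted p = 0.708). Lamtor1 had 85.6, 88.6 and 92.5 CPM after OxLDL, against 100.1, 79.6 and 84.2 CPM untreated in the sh-PHLPP1-labelled line. Lamtor1 in the sh-Luc line had 107, 112 and 114 CPM after OxLDL, against 102, 123.0 and 109 CPM untreated. Its groups overlapped in both lines (0.02 ± 0.11, adjusted p = 0.912 in the sh-PHLPP1-labelled line; -0.01 ± 0.11, adjusted p = 0.971 in sh-Luc), and with scaling by library size alone the sign in the sh-PHLPP1-labelled line turned (-0.41, adjusted p = 0.00469). Lamtor4 averaged 44.5 ± 13.7 CPM with OxLDL and 30.2 ± 9.51 CPM untreated in the sh-PHLPP1-labelled line (0.56 ± 0.23, adjusted p = 0.0579), and 46.7 ± 1.68 and 31.5 ± 1.15 CPM in sh-Luc (0.57 ± 0.23, adjusted p = 0.143). It was called higher in sh-Luc without sh-PHLPP1 untreated replicate 1 (adjusted p = 0.0219), and in the sh-PHLPP1-labelled line in 3 of the 12 fits without 1 library (adjusted p = 0.0264 to 0.0469) and with the replicate number as a block (0.0368).

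Rag GTPases work as pairs of a RagA or RagB with a RagC or RagD. Rragd (chromosome 4, 32983037 to 33022180), for RagD, was higher with OxLDL in both lines, at a low level. It passed the filter on low counts only through its sh-PHLPP1-labelled OxLDL libraries, so its values in comparisons with that group are a description and no test of it is given. Its counts were 42, 43 and 34 with OxLDL and 2, 9 and 7 untreated in the sh-PHLPP1-labelled line. In sh-Luc they were 15, 13 and 6 with OxLDL and 5, 2 and 1 untreated. The ratio of summed counts, scaled to library size, was 11.3 (95% counting interval 6.84 to 19.7) in the sh-PHLPP1-labelled line and 4.58 (2.08 to 11.5) in sh-Luc, and edgeR gave 2.12 ± 0.53, adjusted p = 0.025 for sh-Luc. The OxLDL and untreated libraries were apart in both lines. Its sh-Luc call was lost in 4 of the 12 fits without 1 library, with adjusted p-values of 0.067 to 0.101.

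Rraga, for RagA, had 168, 158 and 153 CPM after OxLDL, against 71.2, 114 and 112 CPM untreated in the sh-PHLPP1-labelled line. Rraga in the sh-Luc line had 112, 106 and 104 CPM after OxLDL, against 91.9, 61.4 and 88.6 CPM untreated. No values overlapped within either line, and the change was called in the sh-PHLPP1-labelled line (0.69 ± 0.18, adjusted p = 0.00681) and not in sh-Luc (0.41 ± 0.18, adjusted p = 0.18), where it was called without sh-PHLPP1 untreated replicate 1 (adjusted p = 0.0353). With library size alone the call in the sh-PHLPP1-labelled line was lost (0.26, adjusted p = 0.281). Rragc encodes RagC. Rragc had 146, 148 and 139 CPM after OxLDL, against 151, 167 and 149.8 CPM untreated in the sh-PHLPP1-labelled line. Rragc in the sh-Luc line had 190.1, 183 and 185 CPM after OxLDL, against 139.6, 139.9 and 136 CPM untreated. The sh-Luc libraries rose by 1.34-fold without overlap (0.42 ± 0.09, adjusted p = 0.00891), while in the sh-PHLPP1-labelled line the OxLDL values lay below the untreated ones without passing the test (-0.11 ± 0.09, adjusted p = 0.298).

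Flcn and Fnip1 encode the folliculin complex, which acts on RagC and RagD as a GTPase-activating protein. Fnip1 had 63.3, 63.0 and 62.2 CPM after OxLDL, against 59.0, 53.0 and 45.01 CPM untreated in the sh-PHLPP1-labelled line. Fnip1 in the sh-Luc line had 52.4, 49.2 and 48.9 CPM after OxLDL, against 33.9, 37.8 and 33.0 CPM untreated. The groups were apart in both lines, all OxLDL libraries being higher. It was called in sh-Luc (0.52 ± 0.11, adjusted p = 0.0106), a call narrowly lost without untreated replicate 3 (0.49, adjusted p = 0.0503), and in the sh-PHLPP1-labelled line (0.26 ± 0.11, adjusted p = 0.0576) it was called only without untreated replicate 1 (0.35, adjusted p = 0.0093) among the fits that left out 1 library. Flcn averaged 37.0 ± 8.20 CPM with OxLDL and 53.6 ± 17.3 CPM untreated in the sh-PHLPP1-labelled line (-0.53 ± 0.21, adjusted p = 0.045), with overlapping values, and the call was lost in 8 of the 12 fits without 1 library (adjusted p = 0.0549 to 0.203). In sh-Luc it averaged 54.0 ± 5.30 and 49.5 ± 1.06 CPM (0.13 ± 0.20, adjusted p = 0.737).

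Of the genes for the kinase complex, TSC and RHEB, 3 of 5 fell with OxLDL in the sh-PHLPP1-labelled line and 0 rose, by edgeR and by DESeq2, with 0 higher at an unadjusted p under 0.05. By edgeR 28.4% of all genes were called lower and 26.2% higher in that line. Without both untreated libraries that stand apart, Tsc1 (0.38, adjusted p = 0.0133) and Rheb (0.25, adjusted p = 0.0413) were called higher there. In sh-Luc 0 of 5 were called in either direction by either tool, also at an unadjusted p under 0.05. Mtor (chromosome 4, 148448611 to 148557683), for the kinase, had 37.2, 37.9 and 30.1 CPM after OxLDL, against 75.7, 62.7 and 63.9 CPM untreated in the sh-PHLPP1-labelled line. Mtor in the sh-Luc line had 64.8, 76.5 and 75.9 CPM after OxLDL, against 76.6, 97.1 and 77.5 CPM untreated. Every OxLDL library labelled sh-PHLPP1 lay below all other libraries (-0.94 ± 0.14, adjusted p = 0.000125 in that line), and the sh-Luc difference of -0.21 ± 0.13, adjusted p = 0.356 had a 95% interval of -0.50 to 0.08. Rptor encodes the subunit that presents substrates to the kinase. It had 65.9, 64.6 and 48.8 CPM after OxLDL, against 139, 89.5 and 87.4 CPM untreated in the sh-PHLPP1-labelled line. Rptor in the sh-Luc line had 134, 159 and 151 CPM after OxLDL, against 131, 221 and 133 CPM untreated. The sh-PHLPP1-labelled OxLDL libraries were again below all others (-0.82 ± 0.23, adjusted p = 0.00943), and the sh-Luc groups overlapped (-0.13 ± 0.23, adjusted p = 0.765), with untreated replicate 2 the highest.

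Tsc2 encodes the subunit of the TSC complex that switches off RHEB, the GTPase that activates mTORC1. It had 43.3, 40.8 and 30.5 CPM after OxLDL, against 68.3, 63.7 and 61.6 CPM untreated in the sh-PHLPP1-labelled line. Tsc2 in the sh-Luc line had 64.9, 69.9 and 67.2 CPM after OxLDL, against 61.3, 75.9 and 65.4 CPM untreated. The change was -0.76 ± 0.13, adjusted p = 0.000486 in the sh-PHLPP1-labelled line and 0.00 ± 0.13, adjusted p = 0.99 in sh-Luc. OxLDL and untreated libraries were apart in the sh-PHLPP1-labelled line and overlapped in sh-Luc. Its exons overlap those of Pkd1 on the other strand by 693 bases, and Pkd1 had 68.0% as many counts, so without a stated strand setting reads of the overlap could belong to either. Tsc1, for the partner subunit, gave 0.20 ± 0.16, adjusted p = 0.292 in the sh-PHLPP1-labelled line and 0.00 ± 0.16, adjusted p = 0.998 in sh-Luc; without sh-PHLPP1 untreated replicate 1 it was called higher in that line (0.38, adjusted p = 0.0296). Rheb had 152, 152 and 183 CPM after OxLDL, against 185, 145 and 127 CPM untreated in the sh-PHLPP1-labelled line. Rheb in the sh-Luc line had 135, 138 and 135 CPM after OxLDL, against 151, 101 and 148 CPM untreated. The groups overlapped in both lines (0.09 ± 0.17, adjusted p = 0.661 in the sh-PHLPP1-labelled line; 0.03 ± 0.17, adjusted p = 0.937 in sh-Luc).

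Of the transcription factors, Tfe3 and Tfeb fell with OxLDL in both lines. Tfe3 had 56.5, 57.2 and 54.3 CPM after OxLDL, against 91.9, 89.3 and 89.4 CPM untreated in the sh-PHLPP1-labelled line. Tfe3 in the sh-Luc line had 76.0, 74.7 and 74.7 CPM after OxLDL, against 97.3, 86.6 and 96.0 CPM untreated. The groups were apart in both lines (-0.69 ± 0.09, adjusted p = 3.91e-05 in the sh-PHLPP1-labelled line; -0.31 ± 0.09, adjusted p = 0.0374 in sh-Luc). Tfeb (chromosome 17, 47737030 to 47792419) had 12.6, 14.5 and 14.4 CPM after OxLDL, against 21.9, 31.9 and 34.8 CPM untreated in the sh-PHLPP1-labelled line. Tfeb in the sh-Luc line had 16.4, 15.7 and 13.3 CPM after OxLDL, against 22.2, 21.2 and 24.7 CPM untreated. OxLDL libraries lay below untreated ones in both lines (-1.10 ± 0.17, adjusted p = 0.000168 in the sh-PHLPP1-labelled line; -0.58 ± 0.16, adjusted p = 0.0444 in sh-Luc). The sh-Luc calls of both genes were weak: each was lost in 9 of the 12 fits without 1 library, with adjusted p-values of 0.0522 to 0.149 for Tfe3 and 0.0524 to 0.176 for Tfeb, and with the replicate number as a block (0.067 and 0.0618).

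Mitf had 26.5, 31.9 and 29.2 CPM after OxLDL, against 60.2, 33.4 and 29.2 CPM untreated in the sh-PHLPP1-labelled line. Mitf in the sh-Luc line had 28.8, 29.1 and 30.5 CPM after OxLDL, against 37.9, 44.7 and 35.8 CPM untreated. Replicate 1 was high among the sh-PHLPP1-labelled untreated libraries, the sh-Luc groups were apart, and neither line passed the test (-0.48 ± 0.22, adjusted p = 0.0786 in the sh-PHLPP1-labelled line; -0.42 ± 0.22, adjusted p = 0.248 in sh-Luc). It was called lower in sh-Luc without sh-PHLPP1 untreated replicate 1 (adjusted p = 0.0155), and in the sh-PHLPP1-labelled line without untreated replicate 2 or 3 (adjusted p = 0.0448 and 0.0155). Per kilobase, the 3 factors together stood at 13.2 ± 0.6 CPM per kb with OxLDL and 21.6 ± 1.7 untreated in the sh-PHLPP1-labelled line, and at 15.5 ± 0.2 and 20.5 ± 0.1 in sh-Luc (SD, n = 3). Tfe3 made up 45.9 ± 2.2% and 45.3 ± 2.7% of that sum in the sh-PHLPP1-labelled line, and 52.2 ± 0.4% and 49.3 ± 2.8% in sh-Luc, with OxLDL and untreated in that order. These are transcript levels and say nothing of where the proteins were in the cell.

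The comparison between the lines asked how they differed with and without OxLDL. After OxLDL, 15 of the 38 genes were called higher in the sh-PHLPP1-labelled line than in sh-Luc and 9 lower, where 27.6% of all genes were called in each direction (55.2% in either). Rragd is among the 15 as a description, for the reason given above. Untreated, 3 were higher and 4 lower, where 14.9% and 12.2% of all genes were called (27.0% in either direction). The lines did not overlap for 30 genes after OxLDL (69.2% of all genes) and 11 untreated (36.9%). Both comparisons draw on the same libraries as the OxLDL responses above. With library size alone the splits were 6 higher and 11 lower after OxLDL and 6 higher and 1 lower untreated, with medians over all genes of -0.25 and 0.15. Since untreated Phlpp1 levels went against the label, each direction here is between lines as labelled.

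**Figure D5:**
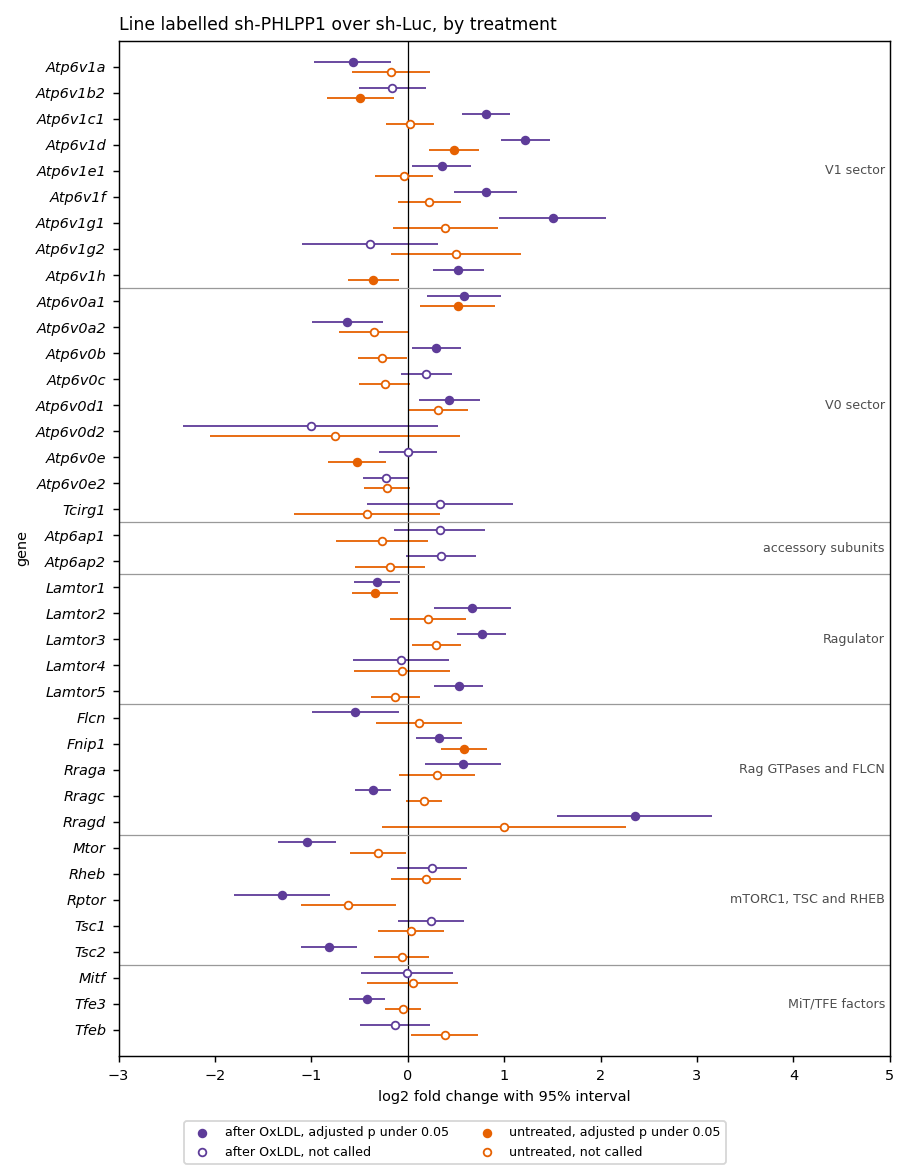
Log2 fold change of the sh-PHLPP1-labelled line over sh-Luc (x axis, with 95% interval) for the 38 tested genes, after OxLDL (purple, upper point of each pair) and untreated (orange); filled points were called at an adjusted p under 0.05. Rragd, Atp6v1g1 and Atp6v1d are farthest to the right after OxLDL, and Rptor and Mtor are the called genes farthest to the left. The purple point of Rragd is a description, because the gene passed the filter on low counts only through its sh-PHLPP1-labelled OxLDL libraries.

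After OxLDL, 6 of the 9 tested V1 genes were higher in the sh-PHLPP1-labelled line than in sh-Luc, where 27.6% of all genes were called higher. The largest differences were those of Atp6v1g1 (2.83-fold; 1.502 ± 0.26, adjusted p = 0.000443) and Atp6v1d (2.33-fold; 1.22 ± 0.12, adjusted p = 9.16e-06), followed by Atp6v1f (0.81 ± 0.15, adjusted p = 0.000786), Atp6v1c1 (0.81 ± 0.11, adjusted p = 0.000126) and Atp6v1h (0.52 ± 0.12, adjusted p = 0.00335). For these 5 genes all sh-PHLPP1-labelled libraries were above all sh-Luc libraries, and only the call of Atp6v1h missed under 1 of the alternatives run, scaling by library size (0.25, adjusted p = 0.0625). Atp6v1e1 passed narrowly (0.35 ± 0.14, adjusted p = 0.0489) and was lost in 10 of the 12 fits without 1 library (adjusted p = 0.0524 to 0.127), with library size alone (0.09, adjusted p = 0.639) and with the replicate number as a block (adjusted p = 0.0632). Atp6v1a was lower in the sh-PHLPP1-labelled line (-0.57 ± 0.19, adjusted p = 0.0196), which missed the threshold once sh-Luc OxLDL replicate 2 (-0.56, adjusted p = 0.0505) was left out, or OxLDL replicate 2 (-0.51, adjusted p = 0.0715) or 3 (-0.57, adjusted p = 0.0537) labelled sh-PHLPP1.

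In the V0 sector, 3 of 9 genes were higher in the sh-PHLPP1-labelled line than in sh-Luc after OxLDL and 1 was lower. With 27.6% of all genes called in each direction, these counts are near or under that share. Atp6v0a1 (0.58 ± 0.18, adjusted p = 0.0147), Atp6v0d1 (0.43 ± 0.14, adjusted p = 0.0239) and Atp6v0b (0.29 ± 0.12, adjusted p = 0.0493) were higher in the sh-PHLPP1-labelled line, and Atp6v0a2 lower (-0.63 ± 0.17, adjusted p = 0.00765). The first no longer passed once sh-Luc OxLDL replicate 1 was left out (0.50, adjusted p = 0.0649), the second in 5 and the third in 9 of the 12 fits without 1 library (adjusted p up to 0.0714 and 0.18), and all of these increases were lost when libraries were scaled by size alone. With the replicate number as a block, Atp6v0b missed the threshold (adjusted p = 0.0562). Tcirg1 (0.34 ± 0.35, adjusted p = 0.435), Atp6v0c (0.19 ± 0.12, adjusted p = 0.191) and Atp6v0e (0.00 ± 0.14, adjusted p = 0.989) did not pass the test. Atp6v0d2 had 3.65, 5.21 and 7.85 CPM in the sh-PHLPP1-labelled line and 12.3, 10.5 and 10.7 CPM in sh-Luc after OxLDL, without overlap; it did not pass (-1.01 ± 0.61, adjusted p = 0.177) but was called when untreated sh-Luc replicate 2, which enters only through the pooled spread, was left out (-1.02, adjusted p = 0.0178). The accessory genes Atp6ap1 and Atp6ap2 were likewise called higher without that library (0.31, adjusted p = 0.0478; 0.33, adjusted p = 0.0209) and not with it (0.33 ± 0.22, adjusted p = 0.219; 0.34 ± 0.17, adjusted p = 0.1). Atp6v0e2, a second e isoform, was called lower without untreated replicate 1 labelled sh-PHLPP1 (-0.24, adjusted p = 0.0391; -0.23 ± 0.11, adjusted p = 0.0991 with it).

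Among the signalling genes after OxLDL, Lamtor3 (0.77 ± 0.12, adjusted p = 0.000207), Lamtor2 (0.67 ± 0.18, adjusted p = 0.00857), Lamtor5 (0.53 ± 0.12, adjusted p = 0.00254), Rraga (0.58 ± 0.18, adjusted p = 0.0174) and Fnip1 (0.32 ± 0.11, adjusted p = 0.0243) were higher in the sh-PHLPP1-labelled line than in sh-Luc. With library size alone the calls of Lamtor2 (0.39, adjusted p = 0.0782), Lamtor5 (0.26, adjusted p = 0.0926), Rraga (0.31, adjusted p = 0.2) and Fnip1 (0.06, adjusted p = 0.684) were lost. The ratio of summed Rragd counts, scaled to library size, was 5.11 (95% counting interval 3.47 to 7.72), a description for the reason given above. Rptor (2.47-fold; -1.31 ± 0.23, adjusted p = 0.000557), Mtor (2.06-fold; -1.05 ± 0.14, adjusted p = 7.61e-05) and Tsc2 (1.76-fold; -0.82 ± 0.13, adjusted p = 0.000323) were lower there by the fold given, with no overlap. Tfe3 (-0.42 ± 0.09, adjusted p = 0.00137), Rragc (-0.36 ± 0.09, adjusted p = 0.00373), Flcn (-0.54 ± 0.21, adjusted p = 0.0406) and Lamtor1 (-0.32 ± 0.11, adjusted p = 0.0263) were lower too. Tfeb (-0.14 ± 0.17, adjusted p = 0.51) and Mitf (-0.01 ± 0.22, adjusted p = 0.966) did not pass. Without 1 library, the call was lost in 3 of the 12 fits for Rraga (adjusted p up to 0.0603), 4 for Fnip1 (up to 0.0883), 4 for Lamtor1 (up to 0.0758) and 5 for Flcn (up to 0.15).

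Before OxLDL the called differences were small. Fnip1 (0.58 ± 0.11, adjusted p = 0.00364), Atp6v1d (0.48 ± 0.12, adjusted p = 0.0127) and Atp6v0a1 (0.52 ± 0.18, adjusted p = 0.0483) were higher in the untreated sh-PHLPP1-labelled line than in untreated sh-Luc. Atp6v0e (-0.53 ± 0.14, adjusted p = 0.0165), Atp6v1b2 (-0.49 ± 0.16, adjusted p = 0.0391), Atp6v1h (-0.36 ± 0.12, adjusted p = 0.0451) and Lamtor1 (-0.34 ± 0.11, adjusted p = 0.0363) were lower. Of the 7 calls only that of Fnip1 held in every fit without 1 library. Atp6v1d was lost without untreated replicate 2 or 3 labelled sh-PHLPP1 (adjusted p = 0.0614 and 0.0636), Atp6v0e in 3 of 12 fits, Atp6v1b2, Atp6v1h and Lamtor1 in 8 each and Atp6v0a1 in 10. With the replicate number as a block, Atp6v1h and Lamtor1 missed the threshold (adjusted p = 0.0655 and 0.0605). A fit of the 6 untreated libraries alone called 0 of the 38 genes, with 2 higher and 4 lower at an unadjusted p under 0.05, while DESeq2 over all libraries called 3 higher and 6 lower.

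The untreated comparison also gained calls without replicate 1 labelled sh-PHLPP1, the library that stood apart: Tfeb was then higher (0.55, adjusted p = 0.00195; 0.38 ± 0.16, adjusted p = 0.0928 with it), as were Atp6v0d1 (0.49, adjusted p = 0.000727), Rraga (0.49, adjusted p = 0.0137), Atp6v1g1 (0.61, adjusted p = 0.0346) and Lamtor3 (0.33, adjusted p = 0.0368). Rptor (-0.87, adjusted p = 0.00469), Mtor (-0.41, adjusted p = 0.0242), Tcirg1 (-0.85, adjusted p = 0.0483), Atp6v0e2 (-0.31, adjusted p = 0.0266) and Mitf (-0.34, adjusted p = 0.034) were then lower. Without both untreated libraries that stand apart, 7 members were higher and 4 lower, where 24.7% and 22.7% of all genes were called.

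The interaction test asked whether the OxLDL response differed between the lines. In 6 of 38 genes the response was more positive in the sh-PHLPP1-labelled line and in 4 more negative, where 11.1% and 13.6% of all genes were called in those directions (24.6% in either). Of the pump genes, Atp6v1g1 (difference of log2 fold changes 1.11 ± 0.36, adjusted p = 0.039), Atp6v1h (0.88 ± 0.17, adjusted p = 0.0042), Atp6v1c1 (0.79 ± 0.16, adjusted p = 0.00542), Atp6v1d (0.74 ± 0.17, adjusted p = 0.0084) and Atp6v0b (0.56 ± 0.17, adjusted p = 0.029) were on the positive side, 5 of 20, and 0 of 20 pump genes had a called difference the other way, with 0 also at an unadjusted p under 0.05 and 0 by DESeq2, which called 8 in the positive direction. Lamtor5 was the only signalling gene with a called positive difference (0.66 ± 0.17, adjusted p = 0.015). Tsc2 (-0.75 ± 0.19, adjusted p = 0.0133), Mtor (-0.73 ± 0.19, adjusted p = 0.0172), Rragc (-0.53 ± 0.12, adjusted p = 0.00923) and Tfe3 (-0.38 ± 0.12, adjusted p = 0.0404) had negative ones. For Rragc the signs of the responses were opposite, at -0.11 ± 0.09 in the sh-PHLPP1-labelled line and 0.42 ± 0.09 in sh-Luc.

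Scaling by library size alone moved the median interaction of all genes to -0.43. It left 1 positive and 10 negative calls among the 38, where 4.34% and 32.1% of all genes were called. Atp6v1h, Mtor, Rragc and Tsc2 kept their call in every alternative run. Atp6v1c1, Atp6v1d and Lamtor5 kept it in every fit without 1 library and lost it with library size alone (0.40, adjusted p = 0.0543; 0.35, adjusted p = 0.129; 0.27, adjusted p = 0.241). Without 1 library, the call was lost in 5 of 12 fits for Atp6v0b (adjusted p up to 0.0796), 6 for Atp6v1g1 (up to 0.0991) and 11 for Tfe3 (up to 0.0791), whose call was also lost with the replicate number as a block (adjusted p = 0.0629). Without untreated sh-Luc replicate 2, Rptor (-0.99, adjusted p = 0.0214), Atp6v1a (-0.67, adjusted p = 0.0321) and Atp6v0d2 (-1.68, adjusted p = 0.0307) had a called negative difference, and without untreated replicate 1 labelled sh-PHLPP1 so did Tfeb (-0.71, adjusted p = 0.00615). Positive differences were gained for Atp6v0e (0.62, adjusted p = 0.0214) and Atp6v0c (0.48, adjusted p = 0.0407) without untreated replicate 1 labelled sh-PHLPP1, for Lamtor3 without untreated replicate 2 labelled sh-PHLPP1 (0.53, adjusted p = 0.0478) or untreated sh-Luc replicate 2 (0.55, adjusted p = 0.028), and for Atp6v1f without OxLDL replicate 1 labelled sh-PHLPP1 (0.69, adjusted p = 0.0394) or untreated sh-Luc replicate 2 (0.66, adjusted p = 0.0445). Flcn had a called negative difference without untreated replicate 2 labelled sh-PHLPP1 (-0.85, adjusted p = 0.043). Without both untreated libraries that stand apart, 11 were positive and 9 negative, where 17.0% and 23.3% of all genes were called.

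Other genes of the pathway were read from lists chosen by function. Of 27 tested genes that sense amino acids for mTORC1, belong to TSC or lie next to it, 3 were higher and 9 lower with OxLDL in the sh-PHLPP1-labelled line, and 1 higher and 1 lower in sh-Luc. The shares of all genes called were 26.2% higher and 28.4% lower in the sh-PHLPP1-labelled line, and 6.38% and 3.09% in sh-Luc; with 9 of 27 the count of lower genes was near that share. Eif4ebp2, for a repressor of translation that mTORC1 phosphorylates, averaged 12.0 ± 1.97 CPM with OxLDL and 41.2 ± 1.42 CPM untreated in the sh-PHLPP1-labelled line (-1.77 ± 0.12, adjusted p = 3.58e-07). In sh-Luc its means were 31.1 ± 2.26 and 39.2 ± 1.53 CPM (-0.33 ± 0.12, adjusted p = 0.0966), and the responses differed between the lines (-1.44 ± 0.17, adjusted p = 0.000174). Sesn1, for a sestrin that restrains mTORC1, fell in both the sh-PHLPP1-labelled line (-1.29 ± 0.13, adjusted p = 1e-05) and sh-Luc (-0.75 ± 0.13, adjusted p = 0.00335). Tfec, the fourth gene of the TFEB family, differed by line: it averaged 3.39 ± 0.55 CPM after OxLDL in the sh-PHLPP1-labelled line and 16.9 ± 1.24 CPM in sh-Luc (-2.31 ± 0.19, adjusted p = 2.53e-06), and 2.45 ± 0.382 and 11.6 ± 2.22 CPM untreated (-2.25 ± 0.19, adjusted p = 1.28e-05).

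Genes that assemble the pump were mixed, with 2 of 11 tested higher and 3 lower with OxLDL in the sh-PHLPP1-labelled line, and 1 higher in sh-Luc, counts near or under the shares of all genes just given in the sh-PHLPP1-labelled line. Vma21, for a chaperone of V0 assembly, averaged 101 ± 12.8 CPM with OxLDL and 48.0 ± 6.49 CPM untreated in the sh-PHLPP1-labelled line (1.07 ± 0.13, adjusted p = 2.81e-05), and 69.0 ± 2.80 and 56.0 ± 5.27 CPM in sh-Luc (0.30 ± 0.13, adjusted p = 0.156). Ccdc115 (-0.61 ± 0.09, adjusted p = 0.00019) and Rogdi (-0.86 ± 0.17, adjusted p = 0.00109) were lower with OxLDL in the sh-PHLPP1-labelled line. Of 25 lysosomal and autophagy genes known as TFEB targets, 14 were higher and 4 lower with OxLDL in the sh-PHLPP1-labelled line (median log2 fold change 0.69), and 7 higher and 1 lower in sh-Luc (0.38). Over all genes the medians were -0.03 and 0.00, and the shares called those given above. Sqstm1, for an autophagy receptor, reached 20374 ± 492 CPM with OxLDL, against 2722 ± 646 CPM untreated, in the sh-PHLPP1-labelled line (2.90 ± 0.20, adjusted p = 3.42e-07), and 3547 ± 387 against 1259.8 ± 245 CPM in sh-Luc (1.49 ± 0.19, adjusted p = 0.000434). Scpep1, for a lysosomal carboxypeptidase, rose in the sh-PHLPP1-labelled line (1.16 ± 0.14, adjusted p = 2.36e-05) and in sh-Luc (0.71 ± 0.13, adjusted p = 0.00607), while Ctsf, for cathepsin F, fell in both (-2.01 ± 0.20, adjusted p = 6.12e-06; -0.98 ± 0.19, adjusted p = 0.00759).

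The authors' deposited tables, from DESeq2, cover 3 of these comparisons. For OxLDL in the sh-Luc line, the authors' deposited table lists 37 of the genes, 13 higher and 3 lower at an adjusted p under 0.05. Of all 11854 genes listed there, 1605 were higher and 1455 lower. Between the lines after OxLDL, the authors' deposited table has 19 higher and 10 lower of 38 in the sh-PHLPP1-labelled line, against 3977 higher and 3880 lower of 11998 genes listed. Untreated, the authors' deposited table has 2 higher and 1 lower of 37, against 1282 higher and 1167 lower of 12028 genes listed.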

How the data were processed

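RNA sequencing of 12 libraries of RAW 264.7 cells was read from a table of counts per gene. The authors deposited whole-number counts made with HTSeq after FastQC and Trimmomatic on build GRCm38, per the submitters' processing notes; the aligner and the strand setting are not given in the sources used here, and the labels say the raw data were lost. The authors deposited 3 tables of DESeq2 comparisons with log2 fold changes and adjusted p-values, per the file headers; they were used only for counts of calls named as theirs.

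Groups came from the shRNA and treatment labels. The 1632 rows with an Ensembl gene ID but no symbol stayed in the table. Genes with enough counts by filterByExpr (13121) were fitted in edgeR 4.0.16 (R 4.3.3, limma 3.58.1) with TMM factors and 1 mean per group over all 12 libraries, which then share 1 estimate of the spread (common biological coefficient of variation 0.171, 8 residual degrees of freedom). The quasi-likelihood test gave each contrast, with Benjamini-Hochberg adjustment over all tested genes and calls under 0.05; each SE was taken as the size of a log2 fold change divided by the root of its F statistic. The scripts were tested on simulated data. Counting intervals and limits for 0 counts cover counting error only. Positions and exon lengths are from GENCODE (GRCm38).

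The rule for the genes reads only names, but it, the lists and the tests were chosen with earlier results of these data known. Genes given in every library were the 4 of each role with the smallest p over the 4 groups, plus any with an interaction of at least 1 on the log2 scale; others were named by the comparison that called them, and Atp6v0d2 and the ratio of Atp6v1d to Atp6v1a after their values were seen. Alternatives were DESeq2 size factors, DESeq2 1.42.0, library size alone, no filter on low counts, only the 6 libraries compared, the replicate number as a block and leaving out each library; leaving out both untreated libraries that stand apart was added after seeing the data.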

Additional observations from a re-analysis of the deposited data

Results flagged for a closer look

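For 10 of the 38 tested genes the response to OxLDL differed between the lines by the interaction test over all genes (edgeR, adjusted p under 0.05). This count is near the share of all genes called, 24.6%. Differences are given here as the sh-PHLPP1-labelled response minus the sh-Luc response on the log2 scale. In the pump these were Atp6v1g1 (1.11), Atp6v1h (0.88), Atp6v1c1 (0.79), Atp6v1d (0.74) and Atp6v0b (0.56), and in Ragulator Lamtor5 (0.66). The response was more negative for Tsc2 (-0.75), Mtor (-0.73), Rragc (-0.53) and Tfe3 (-0.38). No technical or biological cause of these differences was tested.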

How the results depend on the processing

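For the 190 fold changes (38 genes in 5 comparisons), 3240 recomputed values kept their side of the threshold and 207 no longer passed it. A further 123 newly passed it, and 2 passed it with the sign changed. Sign changes of values that did not pass are not counted here. Tcirg1 between the untreated lines, for example, ran from -0.85 to 0.13 when 1 library was left out. Counts that moved by over 1.5 times follow. The cause of these changes was not tested. With library size alone, calls were 12 lower for OxLDL in the sh-PHLPP1-labelled line and 1 lower in sh-Luc, 6 higher between the lines after OxLDL, 6 higher and 1 lower untreated, and 1 positive and 10 negative for the interaction. Lamtor1 then turned to -0.41 for OxLDL in the sh-PHLPP1-labelled line. With no filter on low counts, 1 gene was lower with OxLDL in sh-Luc (1.80% of all genes). DESeq2 gave 10 positive interaction calls (15.2% of all genes). A fit of only the 6 untreated libraries called 0 higher and 0 lower between the lines by edgeR, with 2 higher and 4 lower at an unadjusted p under 0.05; DESeq2, run over all 12 libraries, called 3 higher and 6 lower. Without both untreated libraries that stand apart, calls were 21 higher for OxLDL in sh-Luc, 7 higher between the untreated lines, and 11 positive and 9 negative for the interaction. Leaving out 1 library at a time gave 5 to 16 higher and 0 to 3 lower for OxLDL in sh-Luc, and 1 to 8 higher and 0 to 9 lower between the untreated lines, where Mitf ran from -0.34 (without sh-PHLPP1 untreated replicate 1) to 0.24. The other leave-one-out counts stayed within 1.5 times.

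The labels tie each replicate number to a passage shared by the groups, and do not say that it marks 1 culture or day. The numbers were not taken to pair the samples: in each comparison only 1 of 3 same-numbered pairs correlated over 0.1 in their deviations from the group means, and 2 or 3 of 6 libraries correlated best with their own number. Deviations from means of 3 libraries are tied to each other, and 2 untreated libraries stand apart. The check therefore cannot show that the passages do not pair the samples. The fit with the replicate block called 20 higher and 7 lower for OxLDL in the sh-PHLPP1-labelled line, 10 and 0 in sh-Luc, 13 and 9 between the lines after OxLDL, 3 and 2 untreated, and 6 and 3 for the interaction; the single calls it changes are given beside those genes.

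Depth limited the lowest genes: Rragd rests on 8 to 119 counts per group, and genes with 0 counts may reach 0.0999 to 0.222 CPM.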
